A study of Homo sapiens with 12 samples.

Results

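The S100 genes encode small calcium-binding proteins. They were followed here across 12 RNA libraries of the cell line Z-138, which was established from a mantle cell lymphoma. The members were taken by gene symbol: S100A4, S100A6, S100A10, S100A11, S100A13 and S100B of the S100 family, and S100PBP, which encodes a binding partner of S100P and is not itself an S100 protein. Of these 7 symbols 5 had a row among the 13820 rows of the count table, and all 5 were among the 12602 genes that passed the filter on low counts. S100A10 and S100B had no row under their symbols or Ensembl identifiers and were not analysed here. The family was chosen by the measured fall of S100A4 in SMARCA4 knockdown cells, known from an earlier look at these data, so the knockdown differences of S100A4 are given as a description with no test.

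The study crossed an shRNA with a drug treatment. Z-138 cells carried an shRNA that was either a control or directed against SMARCA4, an ATPase subunit of SWI/SNF chromatin remodelling complexes. Both kinds of cells were grown with doxycycline, in every group, and received either the solvent DMSO or 3 µM ibrutinib plus 3 µM venetoclax. Ibrutinib inhibits Bruton tyrosine kinase and venetoclax inhibits BCL2. Each of the 4 groups held 3 libraries, made with a kit that reads the 3' end of polyadenylated RNA. All libraries come from 1 cell line. The labels do not give the duration of treatment or the number of shRNA sequences, nor whether the replicates of a group were grown apart. All p-values therefore rest on the spread among the libraries, which may be technical. Total counts ran from 7279503 to 22528537 per library, the deepest being the third replicate of the knockdown in DMSO, and 18S and 28S ribosomal RNA took 7.2 to 11.1% of counts. SMARCA4 itself fell from 577 ± 21.6 to 170 ± 9.67 CPM (library-size-scaled counts, with TMM factors) in DMSO and from 610 ± 28.2 to 175 ± 8.66 CPM under drug (mean ± SD, n = 3 libraries each), which left 29.4% and 28.7% of the control level.

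S100 proteins carry a pair of EF-hand loops that bind calcium. Most act as dimers, and calcium binding opens a surface through which they attach to other proteins such as annexins and nonmuscle myosin. Some are also released from cells and act on surface receptors. Most of the human genes lie together on the long arm of chromosome 1 in the epidermal differentiation region. S100A4, also known as metastasin, binds the heavy chain of nonmuscle myosin IIA. S100A6, or calcyclin, binds calcyclin-binding protein and annexins. S100A11 pairs with annexins at membranes, and S100A13 takes part in the release of FGF1 and IL-1α, which leave the cell without a signal peptide.

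The sequence before the transcription start was read for S100A4, S100A6 and S100A11, the clustered members with a single start in RefSeq (build GRCh38.p14), to show how these promoters differ in their core letters. Each run holds the 250 bases before the start, 5′ to 3′ on the gene's own strand, and lies at chr1:153545807-153546056 for S100A4, chr1:153535992-153536241 for S100A6 and chr1:152037005-152037254 for S100A11, all on the minus strand. Capitals mark the letters TATAAA or GGGCGG, searched on both strands.
S100A4: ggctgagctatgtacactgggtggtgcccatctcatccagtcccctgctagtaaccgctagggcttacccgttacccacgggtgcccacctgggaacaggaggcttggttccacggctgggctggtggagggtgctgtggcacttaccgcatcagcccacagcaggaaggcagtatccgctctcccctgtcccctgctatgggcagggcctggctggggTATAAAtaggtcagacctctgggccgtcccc
S100A6: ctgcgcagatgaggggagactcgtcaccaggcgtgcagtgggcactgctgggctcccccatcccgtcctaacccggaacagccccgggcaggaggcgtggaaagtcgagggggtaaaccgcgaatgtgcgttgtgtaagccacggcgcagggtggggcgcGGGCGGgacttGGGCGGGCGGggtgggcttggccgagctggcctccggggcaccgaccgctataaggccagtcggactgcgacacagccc
S100A11: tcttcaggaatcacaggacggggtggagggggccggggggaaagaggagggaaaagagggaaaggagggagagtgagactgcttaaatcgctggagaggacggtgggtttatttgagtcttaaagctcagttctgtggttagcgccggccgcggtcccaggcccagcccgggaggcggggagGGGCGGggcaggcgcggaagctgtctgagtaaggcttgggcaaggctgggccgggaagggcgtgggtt
The S100A4 window held 1 TATAAA, which begins 31 bases before the start, and no GGGCGG. The S100A6 window held 3 GGGCGG, which begin 90, 79 and 75 bases before the start, the last pair sharing bases, and no TATAAA. It does hold tataag near its 3′ end, which differs from TATAAA only in the last letter. The search took exact matches only and left it unmarked. The S100A11 window held 1 GGGCGG, 68 bases before the start, and no TATAAA. Of all 35116 promoter windows of this length in the RefSeq table, 10.7% held TATAAA and 42.6% held GGGCGG on either strand. S100A13 and S100PBP each have 3 starts in that table. One S100A13 start had a TATAAA 29 bases upstream, and another had 1 GGGCGG. One S100PBP start had 3 GGGCGG. The letters TGANTCA, found in 6.57% of all windows on either strand, were absent from the windows of S100A4, S100A6, S100A11 and S100A13 and occurred once before 1 S100PBP start. These matches describe the letters only.

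S100A4 (ENSG00000196154) was the most abundant member in control cells. Its level was 201, 202 and 214 CPM in the 3 control libraries in DMSO and 209, 195 and 230 CPM in the 3 control libraries under drug. In the SMARCA4 knockdown libraries it was 29.4, 23.6 and 23.8 CPM in DMSO and 21.9, 18.1 and 21.8 CPM under drug. Every control library was thus far above every knockdown library, and no values lay between 29.4 and 195 CPM. The count behind each value was 1509 to 2008 in the control libraries and 152 to 537 in the knockdown libraries. On the log2 scale the difference between knockdown and control was -3.02 (SE 0.08) in DMSO and -3.35 (SE 0.09) under drug, which left 12.3% and 9.78% of the control level. These were the differences ranked 47 and 41 among the 12602 genes when ordered from the most negative. They hold as a description of the libraries, since S100A4 was chosen for them. In bulk RNA, fewer cells that express a gene and less of its RNA per cell cannot be told apart.

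S100A4 did not pass the threshold for ibrutinib plus venetoclax in control cells. The mean was 206 ± 7.21 CPM in DMSO and 211 ± 17.4 CPM under drug (SD, n = 3 libraries each), and the libraries overlapped. The difference was 0.04 (SE 0.07, 95% interval -0.1 to 0.17, adjusted p = 0.92, edgeR quasi-likelihood test with Benjamini-Hochberg adjustment). In knockdown cells the drug difference was -0.29 (SE 0.1, interval -0.5 to -0.09). Its edgeR p-value was 0.00592 before and 0.19 after adjustment over all genes, so it did not pass the threshold of 0.05, although the 3 drug libraries all lay below the 3 DMSO libraries. The difference between these drug responses was -0.33 (SE 0.12, interval -0.58 to -0.09). Its edgeR p-value was 0.00955 before and 0.809 after adjustment, which did not pass either.

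S100A6 (ENSG00000197956) fell with the knockdown to about the same share in both treatments. Control libraries held 16.1, 14.5 and 16.9 CPM in DMSO, and knockdown libraries 7.77, 8.14 and 7.45 CPM. Under drug the control libraries held 19.5, 17.6 and 15.6 CPM, and the knockdown libraries 9.32, 7.88 and 6.69 CPM. The groups did not overlap in either treatment, and the counts behind them were 120 to 167 in control and 61 to 168 in knockdown libraries. The fall was -1.04 on the log2 scale in DMSO (SE 0.13, adjusted p = 2.08e-07 by edgeR), which left 48.7%. Under drug it was -1.15 (SE 0.14, adjusted p = 1.05e-07 by edgeR), which left 45.1%. With the drug alone, control cells gave 0.15 (SE 0.12, adjusted p = 0.781 by edgeR). In knockdown cells the drug gave 0.03 (SE 0.15, adjusted p = 0.983 by edgeR).

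S100A13 (ENSG00000189171) fell by less than S100A6. Its level was 21.2, 22.3 and 21.7 CPM in control and 16.4, 13.6 and 12.9 CPM in knockdown libraries in DMSO. Under drug it was 20.0, 20.0 and 21.9 CPM in control and 13.1, 13.7 and 12.1 CPM in knockdown libraries. All knockdown libraries were below all control libraries. The fall was -0.63 in DMSO (SE 0.11, adjusted p = 2.54e-05 by edgeR) and -0.67 under drug (SE 0.12, adjusted p = 3.57e-05), leaving 64.6% and 62.7%. The drug differences were -0.07 (SE 0.11, interval -0.29 to 0.15, adjusted p = 0.896) without the knockdown and -0.12 (SE 0.12, adjusted p = 0.817) with it, and neither passed.

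S100A11 (ENSG00000163191), the least abundant member, gave a less certain difference. In DMSO it was 9.8, 6.76 and 7.64 CPM in control and 6.56, 5.21 and 5.45 CPM in knockdown libraries. Under drug it was 6.41, 7.36 and 7.13 CPM in control and 4.99, 5.49 and 4.94 CPM in knockdown libraries. The knockdown libraries were again all below the controls, but in DMSO the highest knockdown value, 6.56 CPM, lay close to the lowest control value, 6.76 CPM. The difference in DMSO was -0.52 (SE 0.17, interval -0.86 to -0.17, adjusted p = 0.0176 by edgeR). It no longer passed without the first control library (-0.33, adjusted p = 0.224), which held the highest level, without the second (-0.47, adjusted p = 0.0551) or the third (-0.46, adjusted p = 0.0933) knockdown library, or by DESeq2's Wald test (-0.51, adjusted p = 0.0516). Under drug the difference was -0.44 (SE 0.19, interval -0.82 to -0.05, adjusted p = 0.0785) and did not pass. For the drug the difference was -0.22 without the knockdown (SE 0.17, adjusted p = 0.75 by edgeR) and -0.15 with it (SE 0.18, adjusted p = 0.879).

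S100PBP (ENSG00000116497) gave the smallest knockdown differences of the 5 members. Control libraries held 51.2, 55.9 and 56.2 CPM and knockdown libraries 49.0, 52.1 and 49.3 CPM in DMSO, which overlapped. Under drug the values were 54.9, 54.1 and 54.4 CPM in control and 54.2, 54.8 and 59.1 CPM in knockdown libraries. The knockdown difference was -0.12 in DMSO (SE 0.07, interval -0.26 to 0.02, adjusted p = 0.199 by edgeR) and 0.04 under drug (SE 0.07, interval -0.1 to 0.19, adjusted p = 0.7). Both intervals leave out the difference measured for S100A13. The drug gave 0 (SE 0.07, interval -0.14 to 0.15) in control cells and 0.17 (SE 0.07, interval 0.02 to 0.31, adjusted p = 0.359 by edgeR) in knockdown cells, where the 3 drug libraries lay above the 3 DMSO libraries.

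**Figure D1:**
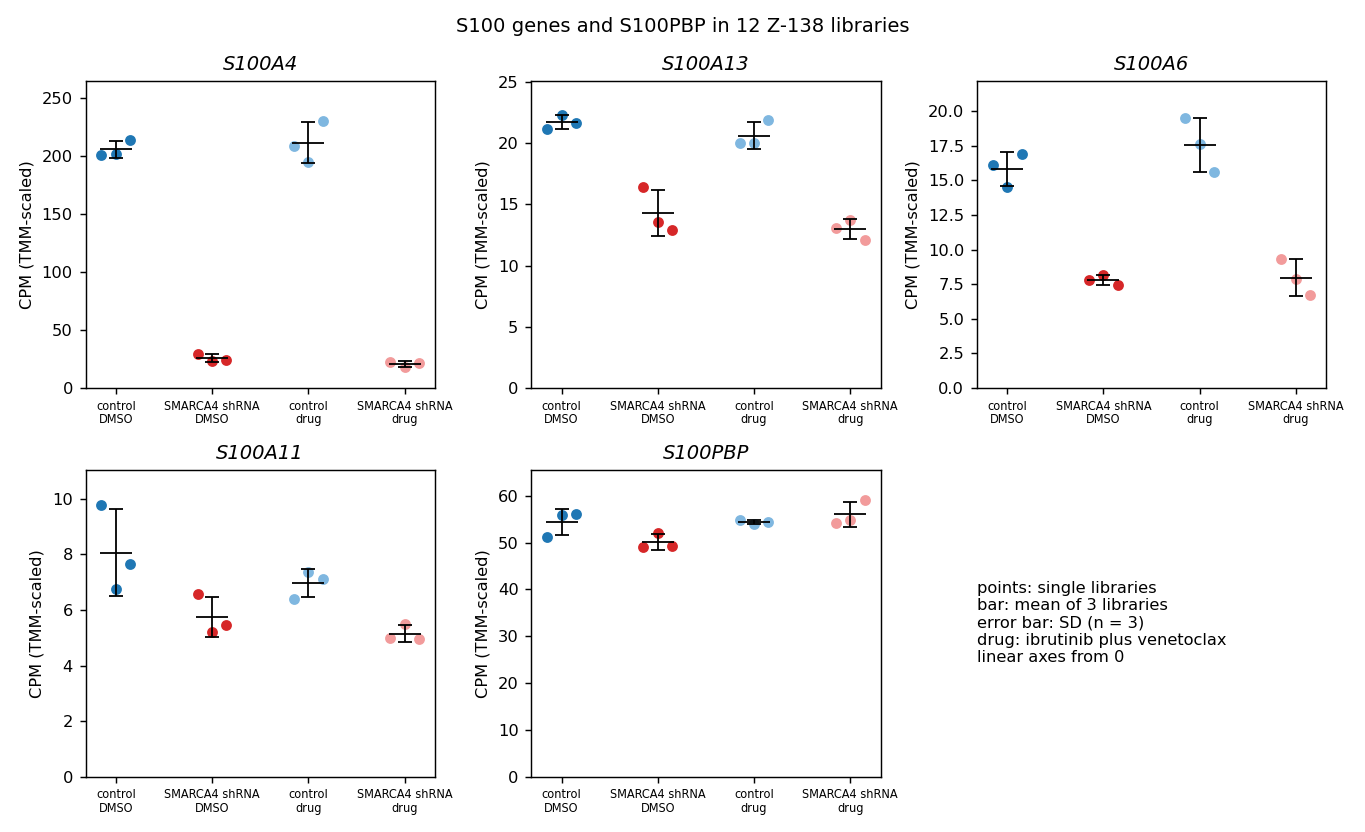
CPM (scaled by TMM, linear axes from 0) of the 5 measured members in each of the 12 libraries, with the mean and SD of each group of 3. Knockdown libraries of S100A4 sit between 18.1 and 29.4 CPM against 195 to 230 CPM in control libraries, while S100PBP lies between 49.0 and 59.1 CPM in all 4 groups.

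Counted over the members, 4 of 5 (3 by DESeq2, without S100A11) were lower past the threshold with the knockdown in DMSO, where 16.2% of all genes tested were lower and 31.3% passed in either direction. Under drug 3 of 5 were lower, where 16.3% of all genes were lower and 31.1% passed in either direction. S100A4 is in both counts and was chosen for its fall, so the counts are a description. The members' median difference was -0.63 in DMSO and -0.67 under drug, beside medians over all genes of 0.004 and 0.002. The libraries of knockdown and control did not overlap for 4 of 5 members in each treatment, against 42.9% of all genes in DMSO and 41% under drug.

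None of the 5 members passed for the drug in control cells, where 1.29% of all genes passed, or in knockdown cells, where 1.29% passed too. At an unadjusted p under 0.05 the edgeR counts were 0 members in control cells and 2 in knockdown cells, S100A4 and S100PBP. DESeq2 and limma-voom also called 0 members in both. The drug and DMSO libraries of 2 members did not overlap in knockdown cells, a pattern shown by 15.2% of all genes, and those of 0 members in control cells, against 14.6%. None passed for the interaction between knockdown and drug, where 0.0238% of all genes did. S100A4 alone had an unadjusted edgeR p under 0.05 there, and DESeq2 and limma-voom called 0 members. For S100A4 this p, and the unadjusted p for the drug in knockdown cells, use the libraries by which it was chosen and are a description. The interaction was -0.11 for S100A6 (interval -0.51 to 0.29), 0.08 for S100A11 (interval -0.44 to 0.59), -0.04 for S100A13 (interval -0.37 to 0.28) and 0.16 for S100PBP (interval -0.04 to 0.36). The intervals of S100A6, S100A11 and S100A13 also hold the value of S100A4.

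**Figure D2:**
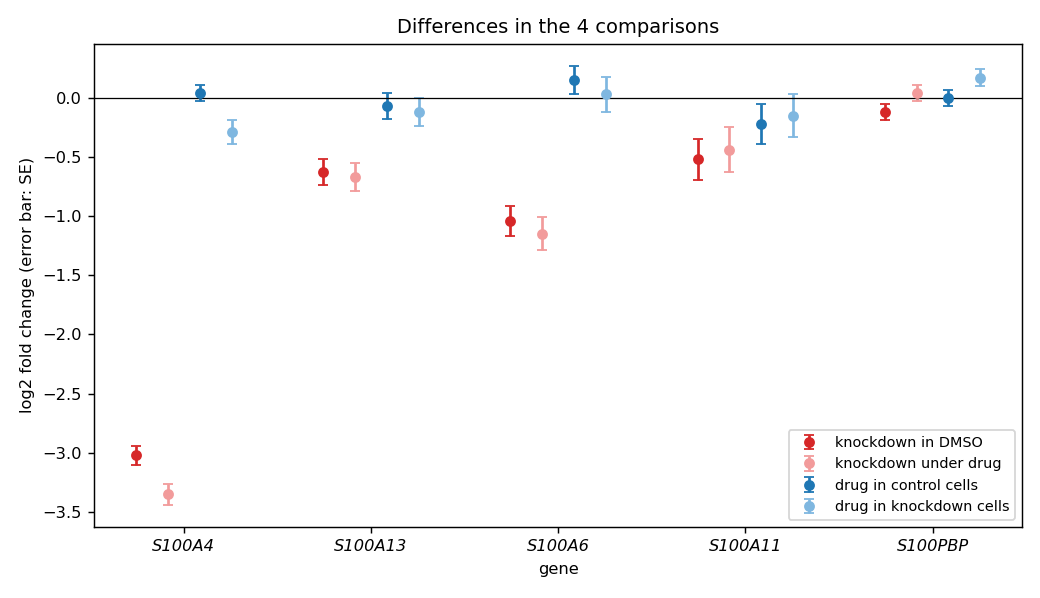
Log2 fold change of each measured member in the 4 comparisons between groups of 3 libraries, with bars of 1 SE. S100A4 lies at -3.02 and -3.35 in the knockdown comparisons, S100A6 near -1, S100A13 and S100A11 between -0.44 and -0.67, and the drug comparisons lie between -0.29 and 0.17.

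The order of the members by level differed between control and knockdown cells only in that S100A4 came below S100PBP in knockdown cells. This, with the shares, percentiles and ratios of S100A4 given here, restates the fall by which the family was chosen and is a description. A 3' tag is read once per transcript, so CPM was compared between genes without division by length. In control cells the order was S100A4 (208 CPM over the 6 libraries), S100PBP (54.5), S100A13 (21.2), S100A6 (16.7) and S100A11 (7.52). In knockdown cells S100PBP (53.1 CPM) came first, followed by S100A4 (23.1), S100A13 (13.6), S100A6 (7.87) and S100A11 (5.44). In each group every pair of neighbours in the order was separated, with 16 of 16 pairs not overlapping between libraries. S100A4 made up 67.6% of the members' summed CPM in control cells and 22.4% in knockdown cells. Among all genes tested its level stood at percentile 94.3 in control cells and 57.2 in knockdown cells. The ratio of S100A4 to S100A6 was 10.7 to 14.7 in the 6 control libraries and 2.3 to 3.79 in the 6 knockdown libraries, so the fall was unequal between these genes. Group means spanned 3.34 on the log2 scale for S100A4, 1.15 for S100A6, 0.74 for S100A13, 0.62 for S100A11 and 0.16 for S100PBP.

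S100A11, S100A6, S100A4 and S100A13 lie in this order on chromosome 1, and S100PBP lies elsewhere on it. In the order of the GENCODE 29 annotation (GRCh38), 7 genes from S100A11 to S100A13 had a row: the 4 members and LOR, PGLYRP4 and S100A2. LOR encodes loricrin of the epidermal cornified envelope, PGLYRP4 a peptidoglycan recognition protein, and S100A2 another S100 protein. All 7 were lower past the threshold with the knockdown in DMSO, where 16.2% of all genes tested were lower, and 6 of 7 were lower under drug, where 16.3% were. S100A11 did not pass under drug. S100A4, chosen for its fall, is in both counts, so they too are a description. The 3 genes that are no members were barely detected. S100A2 and LOR passed the filter on low counts only through control libraries. PGLYRP4 held 9 to 21 counts in knockdown libraries in DMSO and 3 to 9 under drug, and would not have passed through these alone. A call of higher was therefore hardly possible for any of them. The part of these 3 genes in both counts was thus largely set by the filter. LOR was at 1.25 CPM in control and 0.374 CPM in knockdown libraries in DMSO, and at 1.37 and 0.324 CPM under drug. PGLYRP4 was at 2.23 and 1.15 CPM in DMSO, and at 2.61 and 0.733 CPM under drug. S100A2 held 0 to 13 counts per library, at 1.09 ± 0.611 CPM in control and 0.257 ± 0.171 CPM in knockdown libraries in DMSO (SD, n = 3 libraries each). Its difference was -1.73 (SE 0.57, adjusted p = 0.0202 by edgeR), with overlapping libraries, and -2.8 under drug (SE 0.67, adjusted p = 0.0016). LOR gave -1.5 (SE 0.44, adjusted p = 0.00907) in DMSO and -2.07 (SE 0.52, adjusted p = 0.00256) under drug by edgeR. PGLYRP4 gave -1.01 (SE 0.34, adjusted p = 0.0218) in DMSO and -1.84 (SE 0.4, adjusted p = 0.000498) under drug. In DMSO these calls rested on single libraries. The call of S100A2 was lost without the second or the third control library or without the first or second knockdown library (adjusted p = 0.0867, 0.133, 0.0536 and 0.0677). The call of LOR was lost without the second control library (adjusted p = 0.0563). The call of PGLYRP4 was lost without the second control library, without the first or the third knockdown library (adjusted p = 0.103, 0.0561 and 0.149), and by DESeq2 (adjusted p = 0.0546).

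Genes just outside this stretch did not move in one direction. Of the 10 nearest rows on each side, 19 of 20 were tested. Of all genes tested 31.3% passed with the knockdown in DMSO and 31.1% under drug, and 16.2% and 16.3% were lower. In DMSO 5 of the 19 rows were higher, 4 lower and 10 did not pass, with a median of 0. Under drug 4 were higher, 4 lower and 11 did not pass, with a median of -0.09. The highest value in both, 1.61 and 1.99, was that of CRTC2, a coactivator gene with 3 to 186 counts per library. In DMSO CRTC2 was 0.36 without the third knockdown library (adjusted p = 0.718), and its calls were lost by DESeq2 (adjusted p = 0.288 and 0.106) and limma-voom (adjusted p = 0.118 and 0.262). Its call was also lost without the second control library in DMSO (adjusted p = 0.0694), and under drug without the third control library or the first or the second knockdown library (adjusted p = 0.0789 to 0.125). THEM4, a thioesterase gene in the nearest row before S100A11, fell by 0.98 (SE 0.2, adjusted p = 0.000251 by edgeR) in DMSO and by 0.88 (SE 0.21, adjusted p = 0.00135) under drug. TDRKH, a gene of the piRNA pathway 2 rows farther out, rose by 0.6 (SE 0.18, adjusted p = 0.00878) and 0.94 (SE 0.19, adjusted p = 0.000216). CHTOP, an mRNA export factor gene in the nearest row after S100A13, gave 0.17 (SE 0.06, adjusted p = 0.0382) and 0.14 (SE 0.06, adjusted p = 0.0902) by edgeR, and its call in DMSO was lost without any 1 of the 6 libraries compared (adjusted p = 0.0521 to 0.128).

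**Figure D3:**
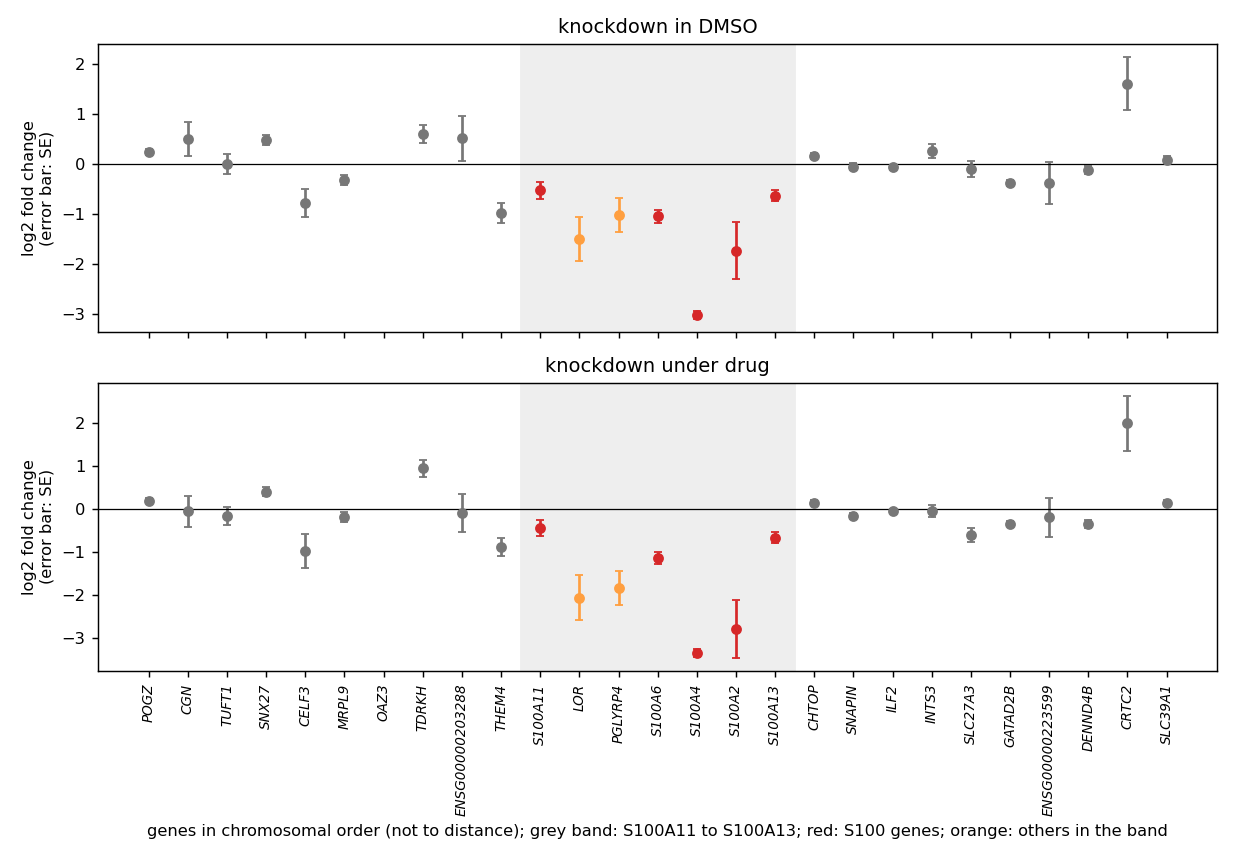
Log2 fold change with bars of 1 SE for the 7 genes from S100A11 to S100A13 (grey band) and the 10 nearest rows on each side, in chromosomal order and not to distance, in DMSO (top) and under drug (bottom). All 7 genes in the band lie below 0 in both panels, while the flanking genes lie on both sides of 0, from -0.98 to 1.61 in DMSO and from -0.98 to 1.99 under drug. The highest point is CRTC2, and the untested gene OAZ3 has no point. LOR and S100A2, in the band, passed the filter on low counts only through control libraries, and PGLYRP4 would not have passed through knockdown libraries alone.

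Reads of some members may hold those of an overlapping gene. In GENCODE 29, S100A4 overlaps S100A3 on the same strand, and S100A13 overlaps S100A1 on the opposite strand and the transcript AL162258.1 on its own. S100A6 and S100A11 each overlap an antisense gene, BX470102.1 and AL450992.1. None of these partners had a row of its own. S100PBP overlaps YARS on the opposite strand, which had a row. The strand setting of the counting is not given in the sources used here, so reads of a gene and its overlapping partner cannot be told apart. S100A11 has processed pseudogenes, and whether the counting split reads between them and the gene was not tested.

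Genes with a profile most like a member's were ranked by the root mean square difference of centred log2 CPM over the 12 libraries, among the 8180 genes whose log2 CPM averaged 3 or more. For S100A4 the closest was TNFRSF1B, which encodes TNF receptor 2, at 0.182. It differed by -2.86 (SE 0.09) in DMSO and -3.12 (SE 0.1) under drug. Next among those reported were RPRML at 0.285, PSD4, an exchange factor for ARF6, at 0.296, and MYOM2, a sarcomere protein gene, at 0.373. For S100A6 the closest was ZMIZ1, a transcriptional coregulator, at 0.086, with -1.04 (SE 0.07) and -1.16 (SE 0.07). KCNAB2, a potassium channel subunit, followed at 0.115, TRAF3IP3 at 0.118, LCP1 at 0.133 and ENSG00000272379, which has no symbol in the table, at 0.139. The other 3 members spanned less than 1 on the log2 scale between group means and were not matched. The genes named were picked by this ranking over the same libraries, so their similar knockdown differences follow from it.

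The protein partners of the members were mixed. Of 6 annexins tested, 3 were lower with the knockdown in DMSO and 2 under drug, beside 16.2% and 16.3% of all genes tested, none was higher, and their median differences were -0.4 and -0.14. ANXA2, which binds S100A10 and S100A4, fell from 63.6 ± 2.37 to 43.1 ± 2.23 CPM in DMSO (SD, n = 3 libraries each), a difference of -0.56 (SE 0.07, adjusted p = 2.16e-07 by edgeR). Under drug ANXA2 fell from 56.5 ± 4.3 to 39.4 ± 0.933 CPM (-0.52, SE 0.08, adjusted p = 2.81e-06). ANXA6, which binds S100A6, fell from 38.3 ± 1.73 to 18.5 ± 2.56 CPM in DMSO (-1.06, SE 0.09, adjusted p = 5.9e-11). Under drug it fell from 42.5 ± 0.805 to 19.3 ± 1.1 CPM (adjusted p = 3.64e-11). ANXA4 was the remaining annexin past the threshold in DMSO (-0.75, SE 0.28, adjusted p = 0.0381), and its call was lost when any 1 of 4 libraries was left out (the second or the third control library, the first or the second knockdown library, adjusted p = 0.0989 to 0.189) and by DESeq2 and limma-voom. ANXA1, a partner of S100A11, had no row.

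Of 19 other partners tested, 10 were lower and 3 higher with the knockdown in DMSO, and again 10 were lower and 3 higher under drug, with medians of -0.17 and -0.19. Of all genes tested 31.3% passed in DMSO and 31.1% under drug, and 16.2% and 16.3% were lower. PPFIBP1, lower in both, was at 0.438 and 0.451 CPM in knockdown libraries and passed the filter on low counts only through control libraries. MYH9, the heavy chain of nonmuscle myosin IIA that S100A4 binds, fell by 0.33 (SE 0.06, adjusted p = 2.82e-05 by edgeR) in DMSO and by 0.39 (SE 0.06, adjusted p = 3.5e-06) under drug. CACYBP, the calcyclin-binding protein gene, fell by 0.28 (SE 0.06, adjusted p = 0.000318) in DMSO and by 0.19 (SE 0.06, adjusted p = 0.0113) under drug. The call of CACYBP under drug was lost with library totals (-0.11, adjusted p = 0.177), without the first control library (adjusted p = 0.0524) and without the second knockdown library (adjusted p = 0.104). AHNAK, a large scaffold held at the membrane with ANXA2, was at 6.97 ± 0.8 CPM in control and 3.99 ± 0.757 CPM in knockdown libraries in DMSO. It fell by 0.79 (SE 0.18, adjusted p = 0.00103) in DMSO and by 0.94 (SE 0.21, adjusted p = 0.000748) under drug. The nucleolar protein gene NCL, the kinase gene STK38 and the scaffold gene IQGAP1 fell by 0.29, 0.38 and 0.32 in DMSO (adjusted p = 4.63e-06, 6.03e-05 and 6.86e-05) and by 0.37, 0.43 and 0.26 under drug. PGM1, the phosphoglucomutase gene, rose by 0.76 (SE 0.14, adjusted p = 9.02e-05) in DMSO and by 1.03 (SE 0.15, adjusted p = 3.08e-06) under drug.

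Among 6 cell surface receptors listed as binding partners of released S100 proteins, 1 was higher and 2 lower with the knockdown in each treatment, where 31.3% and 31.1% of all genes passed. IL10RA, a subunit of the IL-10 receptor, fell by 1.34 (SE 0.19, adjusted p = 1.82e-06 by edgeR) in DMSO and by 1.5 (SE 0.26, adjusted p = 3.59e-05) under drug. It also fell with the drug in control cells, by 0.79 (SE 0.2, adjusted p = 0.0313). PLXNB1, a semaphorin receptor, rose by 0.64 (SE 0.09, adjusted p = 1.52e-06) in DMSO and by 0.31 (SE 0.1, adjusted p = 0.0118) under drug, the latter lost without the second control library (adjusted p = 0.0569) or the second knockdown library (adjusted p = 0.085). BSG fell by 0.27 in DMSO (SE 0.08, adjusted p = 0.00733), lost without the third control library (adjusted p = 0.0644). TLR4, at 2 to 19 counts per library, passed under drug (-1.46, SE 0.48, adjusted p = 0.0186) and was lost without the second control library (adjusted p = 0.0966) or the third knockdown library (adjusted p = 0.132). TLR4 passed the filter on low counts only through control libraries, so a call of higher was hardly possible for it.

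Other calcium-binding protein genes, most of them with EF-hands, changed in both directions. Of 28 tested, 5 were higher and 7 lower with the knockdown in DMSO, and the same numbers were found under drug, with medians of 0.07 and 0.05, where 31.3% and 31.1% of all genes passed in either direction. LCP1, the actin-bundling protein L-plastin, fell from 240 ± 4.18 to 118 ± 3.25 CPM in DMSO (-1.02, SE 0.05, adjusted p = 6.12e-16 by edgeR) and by 0.92 (SE 0.05, adjusted p = 1.04e-14) under drug. CIB1, a calcium and integrin binding protein gene, fell by 0.94 (SE 0.1, adjusted p = 6.15e-09) and 1.05 (SE 0.11, adjusted p = 5e-09). CALM3, a calmodulin gene, rose by 0.36 (SE 0.07, adjusted p = 7.21e-05) in DMSO and by 0.54 (SE 0.07, adjusted p = 1.4e-07) under drug. Of 7 myosin genes tested, 3 were lower and 1 higher in each treatment, where 16.2% and 16.3% of all genes were lower. MYH9, lower in both, and MYH10 were also counted among the other partners above. MYO1G, a membrane-linked myosin of blood cells, fell by 2.4 (SE 0.34, adjusted p = 1.81e-06) and 2.35 (SE 0.39, adjusted p = 1.55e-05) on 3 to 34 counts per library. MYO1G passed the filter on low counts only through control libraries, so a call of higher was hardly possible for it. The light chain MYL12A fell by 0.33 (SE 0.08, adjusted p = 0.00101) in DMSO, and MYL6B rose by 0.44 (SE 0.11, adjusted p = 0.00299).

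**Figure D4:**
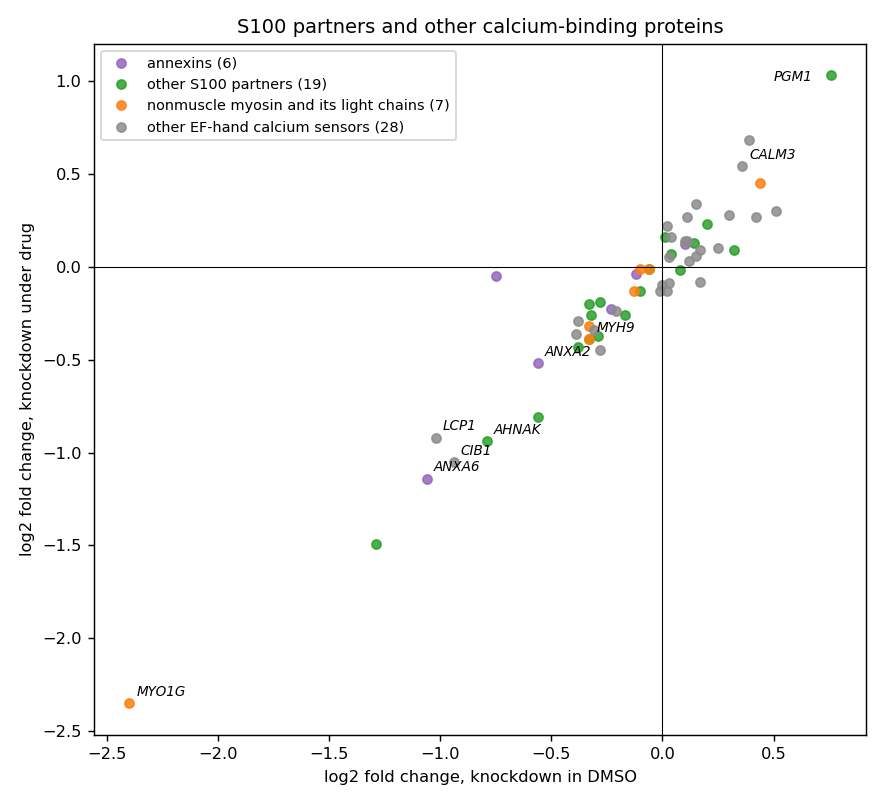
Log2 fold change with the knockdown in DMSO (x axis) and under drug (y axis), 1 point per gene tested. The genes are annexins, other S100 partners, nonmuscle myosin genes and other calcium-binding proteins. Most of the last group have EF-hands, and its label in the figure is EF-hand calcium sensors. MYO1G lies farthest down at -2.4 and -2.35, PGM1 farthest up at 0.76 and 1.03, and the 28 other calcium-binding protein genes spread around 0. MYO1G and PPFIBP1 passed the filter on low counts only through control libraries.

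S100 genes are also markers of cells other than B cells, so marker lists were read beside the members. B cell and mantle cell lymphoma markers had 7 of 8 rows, with a summed level of 4930 to 5760 CPM in control and 4290 to 4510 CPM in knockdown libraries in DMSO, and 5270 to 5630 and 4190 to 4900 CPM under drug. CCND1, the cyclin D1 gene, made up most of each sum, with group means of 3550 to 4480 CPM, and the sum therefore follows CCND1. CD79A, a subunit of the B cell receptor, had group means of 52.3 to 80.1 CPM. Of these 7 markers 6 were lower and 1 higher with the knockdown in DMSO, where 16.2% of all genes were lower and 31.3% passed. Under drug 5 were lower and 1 higher, where 16.3% of all genes were lower and 31.1% passed. MS4A1 (CD20) fell by 1.36 (SE 0.06, adjusted p = 1.8e-18 by edgeR) in DMSO, and SOX11 rose by 0.92 (SE 0.05, adjusted p = 1.06e-15). T and NK cell markers had 3 of 8 rows, CD3G, CD4 and PRF1, with a summed level of 18.1 to 19.7 CPM in control and 1.75 to 3.15 CPM in knockdown libraries in DMSO, and of 17.5 to 21.4 and 2.03 to 3.54 CPM under drug. CD3G fell by 3.28 (SE 0.18, adjusted p = 2e-15) in DMSO. CD3D, CD3E, CD8A, NKG7 and GNLY had no row. Of 8 myeloid markers 0 had a row. COL1A1 was the 1 of 8 fibroblast, endothelial and epithelial markers with a row, at 19.6 to 23.7 CPM in control and 14.8 to 15.1 CPM in knockdown libraries in DMSO, and at 25.2 to 26 and 14.2 to 15.1 CPM under drug. Of 5 melanocyte and glial markers 2 had a row, summing to 6.21 to 9 CPM in control and 3.41 to 5.58 CPM in knockdown libraries in DMSO, and to 8.14 to 12.4 and 3.15 to 3.51 CPM under drug. The sums of the T and NK, COL1A1 and glial rows thus moved with the S100 genes, and their part in the result was not tested. Ribosomal RNA took 8.86 to 9.47% of counts in control and 10 to 11.1% in knockdown libraries in DMSO, and 10.2 to 10.8% and 7.2 to 8.98% under drug. Its share was thus higher in the knockdown in DMSO and lower in the knockdown under drug, and its part in the result was not tested.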

How the data were processed

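The authors deposited a table of raw read counts per gene, per the file headers. Per the submitters' processing notes, the tools were HISAT2, HTSeq and bcl2fastq 2.17.1.14, and the genome build was hg19. Their roles, the annotation, the strand setting and other versions are not stated there. The column named for control shRNA replicate 1 without a treatment was assigned by name alone to the control group under drug, as the other 11 names matched the remaining samples. Members and gene lists were chosen with earlier results of these data known.

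Genes were filtered with filterByExpr (minimum count 10, minimum total 15), scaled by TMM and fitted with edgeR 4.0.16 in R 4.3.3, with 1 coefficient per group over all 12 libraries (8 residual degrees of freedom, 22.5 prior). The quasi-likelihood test was adjusted by Benjamini-Hochberg over 12602 genes, with a threshold of 0.05. SE is the absolute log2 fold change divided by the square root of F. CPM was computed from the counts with TMM scaling and not divided by length. The 1656 rows without a symbol stayed in the fit. Replicates of a group differed by a chi-square per degree of freedom of 1.83 to 4.67, more than counting noise alone. The fits were tested on simulated data.

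Named genes are all members, up to 4 genes per list and comparison with the smallest adjusted p past the threshold, direct partners of a member, the 5 most similar profiles for members whose group means span at least 1 on the log2 scale, and neighbouring rows. A few genes picked by this rule are left out of the text. Promoters came from RefSeq (5 of 5 members matched, GRCh38.p14), whose build is not that of the counts. Alternatives were DESeq2 1.42.0, limma-voom 3.58.1, other scalings and filters, a replicate block and leaving out each library.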

Additional observations from a re-analysis of the deposited data

How the results depend on the processing

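With all libraries kept, 44 of 44 member counts under other settings were within 1.5 times of those reported. That band also holds a count of 3 or 4 that loses 1 member, as with S100A11 by DESeq2 in DMSO. For the drug comparisons and the interaction it only compares 0 with 0. Without 1 library the count was 3 to 4 members for the knockdown in DMSO (S100A11 decided it) and 3 under drug. It was 0 for the drug comparisons and the interaction. Leaving out 1 library moved the count of all genes past the threshold to 3218 to 4094 for the knockdown in DMSO (3940 with all), 3312 to 3954 under drug (3919), 106 to 176 for the drug in control cells (163), 100 to 181 in knockdown cells (162) and 1 to 3 for the interaction (3). The interaction count was 1 with a filter of 5 CPM in 3 libraries and 0 without ribosomal RNA rows. The cause was not tested. Library totals gave 2691 higher and 1447 lower genes for the knockdown under drug (1860 and 2059 with TMM), 74 and 85 for the drug in control cells (93 and 70) and 132 and 53 in knockdown cells (93 and 69). Differences that were not past the threshold changed sign in some settings. S100PBP for the drug in control cells was -0.02 with library totals, 0 without the filter and 0 without ribosomal RNA rows. The interaction of S100A13 was 0.02 with library totals, and the knockdown difference of ANXA4 under drug was 0.03 with library totals and -0.37 to 0.13 without 1 library. Leaving out 1 library gave -0.03 to 0.09 for S100A4, -0.04 to 0.02 for S100PBP (both drug in control cells), -0.09 to 0.15 for S100A6 (drug in knockdown cells), and interactions of -0.23 to 0.01 for S100A6, -0.1 to 0.19 for S100A11 and -0.14 to 0.05 for S100A13. Replicate numbers did not pair libraries (correlations of same-numbered deviations -0.314 to 0.227, 5 of 12 libraries closest to their own number). With the replicate block 3822, 3827, 150, 147 and 2 genes passed in the 5 comparisons, and the member counts were 4, 3, 0, 0 and 0. S100A11 held 38 to 123 counts per library, the fewest of the members.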
